A study of Mus musculus with 24 samples.

Results

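The miRNA miR-210 was followed through 24 samples of a mouse model of triple-negative breast cancer. It was taken by name, as the probe mmu-miR-210, 1 of the 566 mouse miRNA probes of the nCounter assay, which counts fluorescent barcodes bound to each RNA without amplification. miR-210 is the miRNA most closely tied to low oxygen: hypoxia-inducible factor 1 alpha (HIF-1alpha) switches on its gene, and among its known targets is the iron-sulfur cluster scaffold Iscu, through which it lowers mitochondrial respiration. It is often raised in solid tumors, including breast cancer.

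The tumors grew from JygMC(A)-GFP/Luc cells, a mouse mammary carcinoma line that arose in a wild mouse, carries an activating viral insertion at Notch4 and was made to express luciferase and GFP. They were injected into the mammary fat pads of young adult female BalbC nude mice, which lack T cells. Laser microdissection gave 5 carcinoma areas with epithelial-like cells, 7 EMT-like areas with spindle-like cells, 4 lung metastases, 2 samples of normal mammary gland (NMG) and 2 of normal lung parenchyma, all from that strain. Carcinoma and EMT-like areas together are named primary tumor (PT). The same cells were also grown as 2 monolayer cultures and as 2 cultures of serially passaged 3D-spheres, and all tumor samples and cultures derive from that single line. Tumor samples shared animals in part, and 1 sample of each of the 3 tumor groups has a label naming 3 animals, which was counted as 1 sample. The sums of mouse miRNA values per lane ranged from 62583 to 184501 in the 16 tumor samples, from 525697 to 2335745 in normal tissue and from 26420 to 46507 in the cultures. Whether the replicates of normal tissue and of cultures came from separate experiments is not given beyond their labels, so p-values measure the spread between these samples.

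The sequences of both arms are shown with the seed, bases 2 to 8, in capitals, because the seed selects the targets. They come from RefSeq annotation on GRCm38.p6, where the Mir210 hairpin of 110 bases lies on the minus strand of chr7:141221384-141221493, in an interval that overlaps 0 other genes and has Rassf7 as its nearest neighbour on one side. The 3p arm lies at chr7:141221407-141221428 and the 5p arm at chr7:141221445-141221466. The name on the panel carries no arm. By older naming it stands for the 3p arm, the one that accumulates, but the probe sequence was not among the sources used here.
mmu-miR-210-3p: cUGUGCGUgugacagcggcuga
mmu-miR-210-5p: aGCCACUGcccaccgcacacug
Of 1679 mature mouse miRNAs in that annotation, 0 others had the seed of the 3p arm and 0 others that of the 5p arm, so miR-210 has no family member by seed. The seed of the 3p arm holds a CG step, as do those of 13.0% of the mature miRNAs.

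miR-210 was detected everywhere. Its deposited value, counts from which the average negative control of its lane had been taken off, was above the detection limit of the lane (the mean plus 2 SD of 6 negative controls) in 24 of 24 lanes. In carcinoma replicates 1 to 5 the deposited values were 91, 79, 151, 97 and 144. In EMT-like replicates 1 to 7 they were 180, 142, 223, 141, 168, 255 and 167. In lung metastasis replicates 1 to 4 they were 44, 34, 40 and 36. All 4 metastases thus lay below all 12 PT samples before any scaling. The NMG samples had 206 and 202. The normal lung samples had 126 and 392, and the lane with 392 held the highest miRNA sum of all. Monolayer cultures had 23 and 25, and spheres had 22 and 14. These culture values were only 1.08 to 1.48 times the detection limit of their lanes, so they carry little precision, while those of metastasis were 1.87 to 11 times the limit and those of PT 4.44 to 21.4 times.

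Lanes were then made comparable with trimmed mean of M-values (TMM) factors over all miRNA probes, and the scaled values are named normalized values. Normalized miR-210 was highest in EMT-like areas, at 161 ± 29.5 (SD, n = 7), followed by carcinoma with 131 ± 41.4 (SD, n = 5). Normal tissue came next, NMG with 79.9 ± 7.0 (SD, n = 2) and normal lung with 73.8 ± 6.0 (SD, n = 2). Lung metastasis had 56.6 ± 6.21 (SD, n = 4). The cultures were lowest, the monolayer with 43.3 ± 10.8 (SD, n = 2) and the spheres with 36.5 ± 2.56 (SD, n = 2). Neighbours in that order were compared by limma, a linear model fitted to log2(normalized value + 1) of 583 probes, with Benjamini-Hochberg adjustment over the probes. None of the 6 pairs was called at an adjusted p under 0.05. Carcinoma and NMG came closest, without overlap, with a 95% interval of the log2 difference of 0.07 to 1.25 that leaves out 0 before adjustment (adjusted p = 0.0915 by limma). For the other 5 pairs the interval held 0. Ranked within its own lane among the 566 mouse miRNAs, a measure that needs no scaling, miR-210 held places 55 to 89 in PT, 103 to 120 in metastasis, 112 and 120 for NMG, 129 and 132 for normal lung, 94 and 75 for the monolayer and 95 and 104 for the spheres. By rank the cultures thus stood before normal tissue. The culture lanes held only 104 to 126 mouse miRNAs above the detection limit, against 358 and 345 in NMG. The normal lung lanes held 257 and 368, and ranks were not adjusted for these numbers. Per 100000 mouse miRNA counts of the lane, means were 72.0 for the monolayer, 49.4 for spheres, 41.2 for metastasis, 37.6 for NMG and 19.1 for normal lung. Scaled by the 100 most abundant miRNAs, the cultures were highest, at 230 ± 143 and 167 ± 18.8 (SD, n = 2 each). The order given above is therefore that of TMM scaling.

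**Figure D1:**
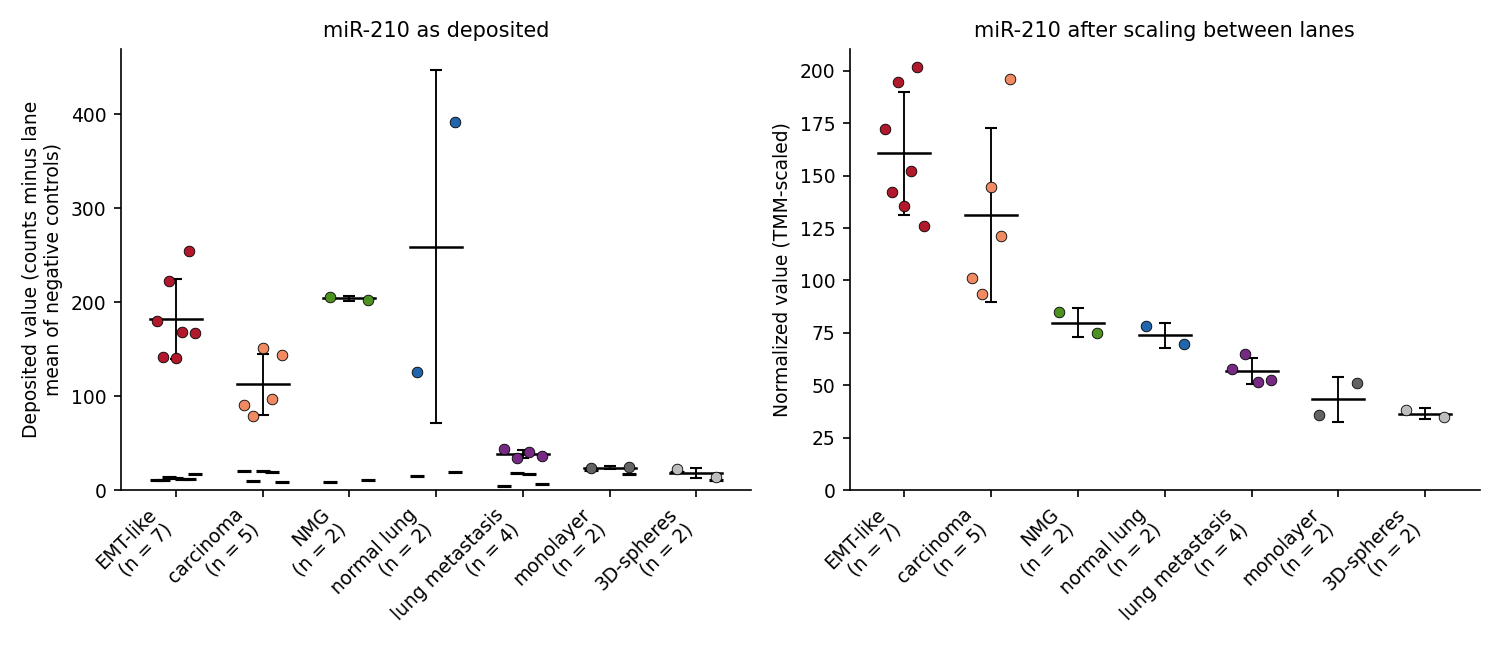
miR-210 in each of 24 samples by group, with the deposited value on the left axis panel and the normalized value on the right; points are samples, wide lines and bars are the mean and SD, and short black dashes on the left are the detection limit of each lane. The 4 lung metastases, between 34 and 44 as deposited and between 51.3 and 64.9 after scaling, sit below all 12 primary tumor samples in both panels.

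The clearest difference was between lung metastasis and PT. After scaling, the metastases lay at 57.9, 64.9, 51.3 and 52.4, and the PT samples ran from 93.3 through a median of 143 to 202. Every metastasis was below every PT sample. The log2 fold change of metastasis against PT was -1.34 (standard error 0.20, 95% interval -1.75 to -0.93, adjusted p = 0.000179 by limma with Benjamini-Hochberg adjustment over 583 probes), a level 2.53-fold lower in metastasis. In that comparison 3.09% of the probes were called at an adjusted p under 0.05, with 0.515% higher and 2.57% lower in metastasis, and miR-210 had the 3rd smallest p. Values of every metastasis below those of every PT sample were found for 9 of the 583 probes (1.54%). The exact two-sided permutation test over the 16 samples gave p = 0.000549, the smallest p possible for groups of these sizes (0.00275 after adjustment over 10 comparisons). It took the samples as independent, although all 4 metastases share an animal label with PT samples. A sign-flip permutation test on the 4 pairs with EMT-like areas allows no p under 0.125.

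The measures that use only the lane itself gave the same direction. As a share of the lane, miR-210 made up 105 ± 30.4 per 100000 mouse miRNA counts (SD, n = 12) in PT and 41.2 ± 9.63 (SD, n = 4) in metastasis, again without overlap (exact permutation p = 0.00165, adjusted 0.0152). The exact test on the rank within the lane gave p = 0.000549 (adjusted 0.00549). The miRNA sums per lane were 62583 to 115278 in metastasis and 111602 to 184501 in PT. In microdissected tissue fewer cells of a type and less RNA per cell cannot be told apart.

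Against each kind of PT area alone, miR-210 was lower in metastasis as well. Against EMT-like areas its log2 fold change was -1.47 (standard error 0.21, adjusted p = 0.000147 by limma), where 7.72% of the probes were called. Against carcinoma it was -1.15 (standard error 0.23, adjusted p = 0.00763 by limma), with 1.37% of the probes called. Groups did not overlap in either. These comparisons use the same 4 metastases and are not independent of the one against PT. The call against carcinoma was lost when only the groups compared entered the fit (adjusted p = 0.0886), with scaling by the 4 mRNA probes (0.114) and by the 100 most abundant miRNAs (0.0538).

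The same was seen within animals, where labels allow pairs. Metastasis replicates 1, 2, 3 and 4 share a label with EMT-like replicates 1, 4, 6 and 7, and miR-210 was lower in metastasis in 4 of 4 pairs, by 2.97-fold, 2.09-fold, 3.93-fold and 2.40-fold. The mean log2 difference was -1.45 ± 0.39 (SD, n = 4 pairs, exact sign-flip permutation p = 0.125, the smallest that 4 pairs allow). In both pairs with carcinoma, metastasis was lower, at 57.9 against 101 in the label of 3 animals and 64.9 against 196 in a single mouse. Some animal labels hold letters and others are plain numbers, which makes 2 series. Within the numbered series, 3 metastases ranged from 51.3 to 64.9 and 7 PT samples from 121 to 202 (exact permutation p = 0.00833, the smallest possible). That test, too, took samples of the same animal as independent. Within the lettered series, the single metastasis had 57.9 and 5 PT samples ranged from 93.3 to 172.

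**Figure D2:**
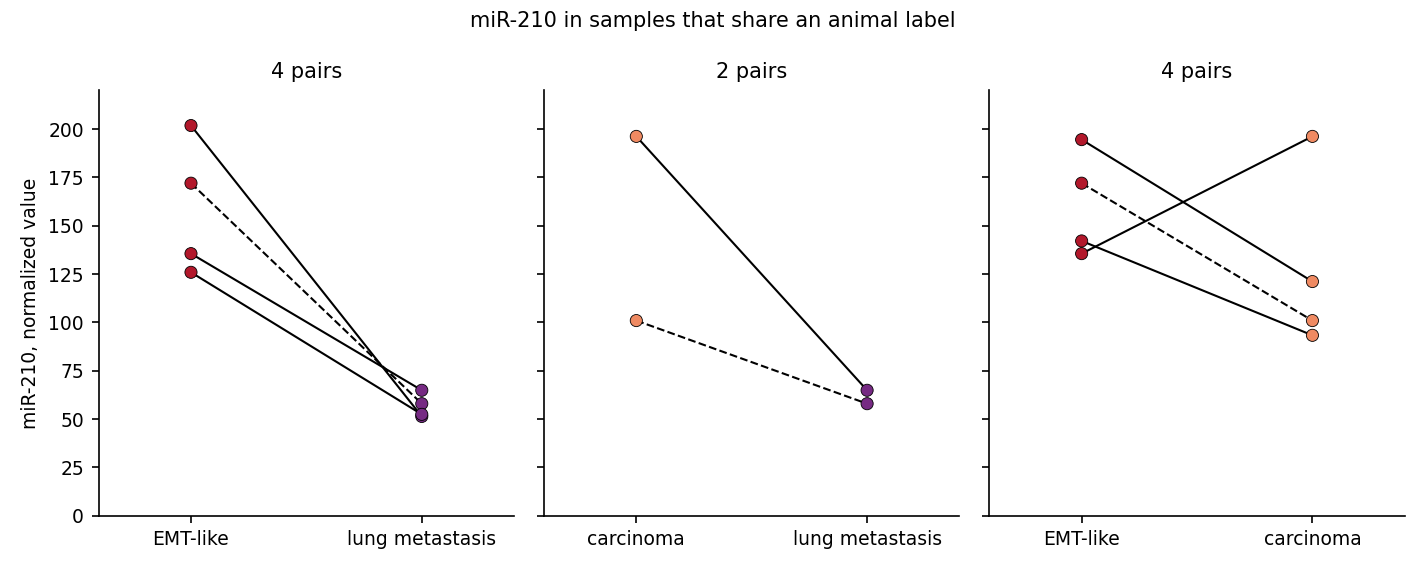
Normalized value of miR-210 in samples that share an animal label; each line joins 2 samples, and dashed lines mark the label that names 3 animals. All 4 lines from EMT-like area to lung metastasis and both from carcinoma to metastasis fall, while 3 of 4 lines from EMT-like area to carcinoma fall and 1 rises.

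Between the areas of the primary tumor the values overlapped. The carcinoma samples had normalized values of 101, 93.3, 145, 121 and 196, and EMT-like areas of 172, 142, 195, 136, 152, 202 and 126. 3 of 5 carcinoma samples were below all EMT-like samples, and carcinoma replicate 5 lay among the highest. The log2 fold change of carcinoma against EMT-like areas was -0.32 (standard error 0.20, 95% interval -0.74 to 0.09, adjusted p = 0.489 by limma), so miR-210 was not called. The background of calls was 0.172%, a single probe. On deposited values the exact two-sided permutation test gave p = 0.0126 (adjusted 0.0316 over 10 comparisons), on the rank within the lane p = 0.0253 (adjusted 0.0463), on the share of the lane p = 0.0303 (adjusted 0.0505), and on normalized values p = 0.134 (adjusted 0.179). The direction was the same on these 4 scales, and whether the difference passed depended on the scale. Within animals, carcinoma was lower in 3 of 4 pairs, by 1.70-fold, 1.52-fold and 1.61-fold, and higher in the pair of carcinoma replicate 5 with EMT-like replicate 4, at 196 against 136. The difference between carcinoma and EMT-like areas did not pass a test of its change between the series of animals (log2 difference 0.45, standard error 0.43, adjusted p = 1 by limma).

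Spheres, which can hold less oxygen at their core than a monolayer, showed no detectable difference in miR-210. The normalized values were 38.3 and 34.7 in the spheres and 35.7 and 51.0 in the monolayer. The log2 fold change was -0.22 (standard error 0.34, 95% interval -0.93 to 0.49, adjusted p = 1 by limma), where 4.63% of the probes were called. Its interval leaves room for either direction. With only the cultures in the fit, 0 of the 583 probes were called higher and 0 lower. With 2 cultures of each kind, the exact permutation test cannot go below p = 0.333 (it gave 0.667). The direction turned when monolayer replicate 2 was left out (log2 fold change 0.029).

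After TMM scaling, both kinds of culture had less miR-210 than the tumors that the same cells formed. As deposited, the culture values were only 1.08 to 1.48 times the detection limit of their lanes. The cultures ranged from 34.7 to 51.0 and PT from 93.3 to 202, without overlap. Their log2 fold change was -1.84 (standard error 0.20, adjusted p = 1.12e-07 by limma, exact permutation p = 0.000549, adjusted 0.00275), in a comparison where 30.4% of the probes were called. Tumor areas also hold host cells: the endothelial probes miR-126-3p and miR-126-5p were both at 0 in all 4 cultures, and their summed normalized value was 1067 to 2626 in PT. Their part in the difference was not tested. The difference depended on scaling. With the 100 most abundant miRNAs as the base, the log2 fold change was 0.50 (adjusted p = 0.0887 by limma), and as a share of the lane the cultures had 60.7 ± 23.4 per 100000 (SD, n = 4), with 3 of 4 below all PT samples. The exact permutation test gave p = 0.0203 on the share (adjusted 0.0505) and p = 0.00604 on the rank within the lane (adjusted 0.0198).

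Against normal tissue, the result depended on how lanes were scaled. The normalized values in NMG were 84.9 and 75.0, below all 12 PT samples. For EMT-like areas against NMG the log2 fold change was 0.98 (standard error 0.27, adjusted p = 0.00991 by limma), with 24.9% of the probes called. That of carcinoma was 0.66 (standard error 0.28, adjusted p = 0.0915 by limma), with 29.3% called. The exact permutation test gave p = 0.0278 for EMT-like areas, the smallest possible (adjusted 0.0556), and p = 0.143 for carcinoma (adjusted 0.179). Both comparisons share the 2 NMG samples. With no scaling, with the positive controls and with the mRNA controls, both fell below 0, to -0.19, -0.091 and -0.040 for EMT-like areas and to -0.90, -0.67 and -0.21 for carcinoma. The call for EMT-like areas was also lost without NMG replicate 2 (log2 fold change 0.89, adjusted p = 0.0951 by limma). Within the lane, miR-210 ranked at 55 to 89 in PT and at 112 and 120 in NMG. Mouse miRNAs above the detection limit numbered 150 to 258 per lane in PT, and 358 and 345 in NMG.

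Lung metastasis and normal lung were set side by side because the metastases grew in that tissue. The normal lung samples had 78.1 and 69.6, just above the 4 metastases. The log2 fold change of metastasis was -0.38 (standard error 0.29, 95% interval -0.99 to 0.23, adjusted p = 0.313 by limma), where 49.2% of the probes were called. Its direction turned with scaling, from -2.51 with no scaling to 1.38 with the 100 most abundant miRNAs, both called. Within the lane, miR-210 ranked at 103 to 120 in metastasis and at 129 and 132 in normal lung. Its mean share was 41.2 per 100000 in metastasis and 19.1 in normal lung, so both measures put metastasis higher. The exact permutation test gave p = 0.0667 on each, the smallest possible. Both measures depend on the other miRNAs of the lane. Mouse miRNAs above the detection limit numbered 135 to 237 in metastasis, and 257 and 368 in normal lung. The endothelial probes summed to 819 to 3114 in metastasis and 67772 to 70141 in normal lung (normalized values). Their part in the difference was not tested. Between normal lung and NMG the log2 fold change was -0.11 (standard error 0.34, adjusted p = 0.887 by limma), with 11.7% called. The lung value was the lower one in both mice that gave the 2 tissues, at 78.1 against 84.9 and 69.6 against 75.0 after TMM scaling. That direction turned with the mRNA controls, where lung was the higher one in both mice, at 211 against 104 and 455 against 192, and the deposited values went opposite ways in the 2 mice (126 against 206 and 392 against 202).

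**Figure D3:**
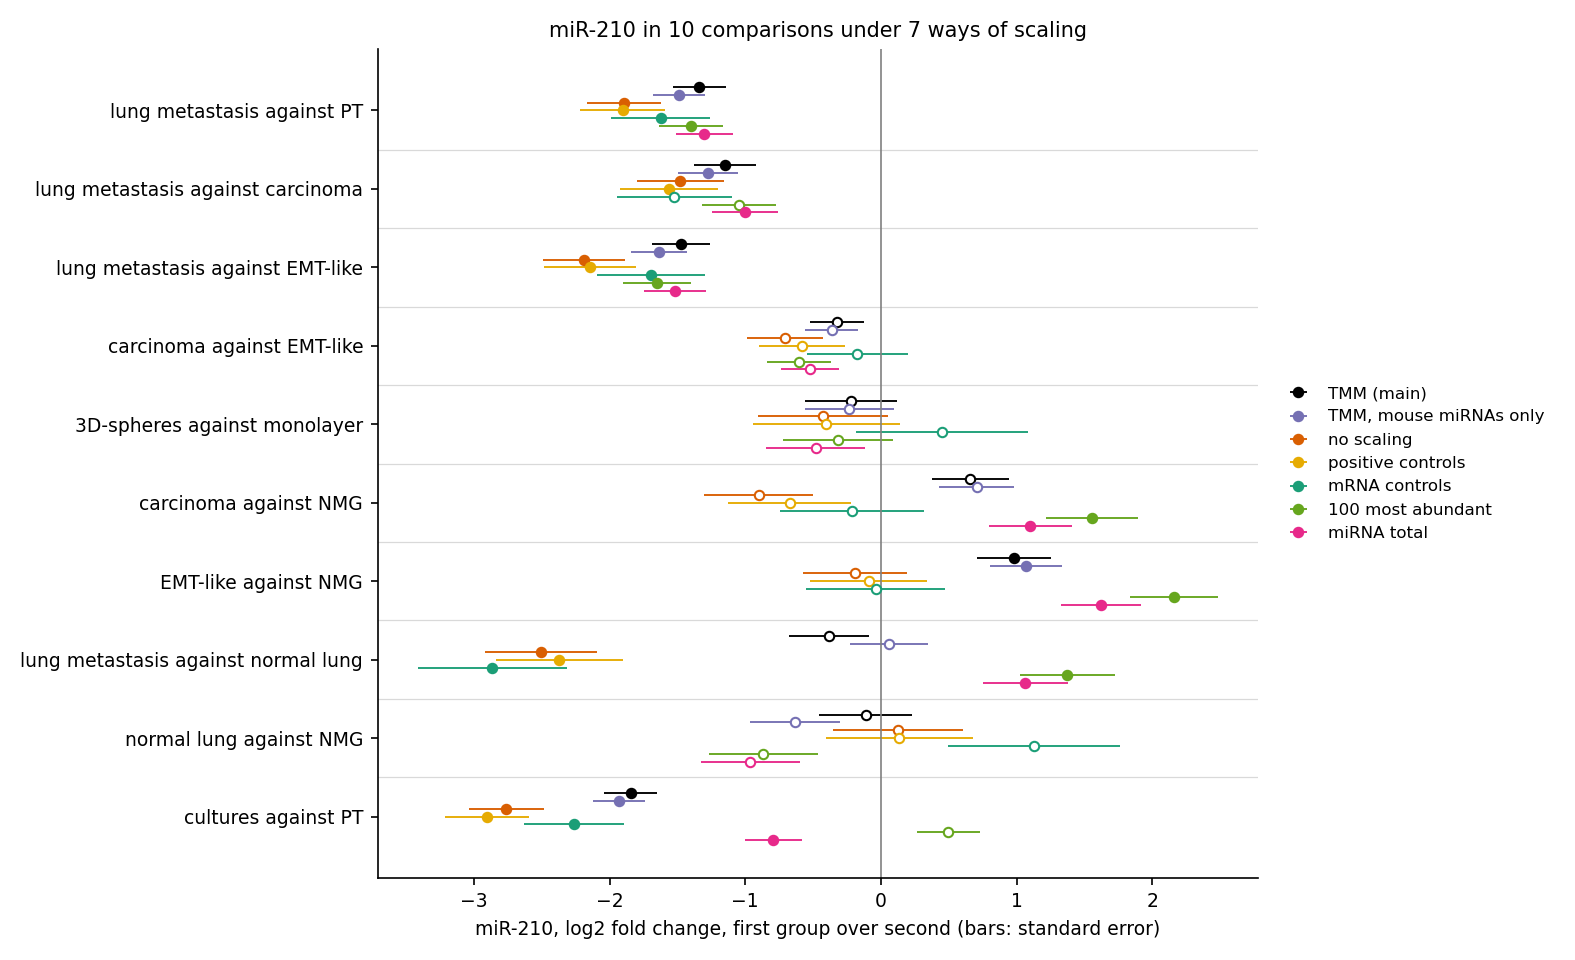
log2 fold change of miR-210 with its standard error in 10 comparisons under 7 ways of scaling lanes; filled points have an adjusted p under 0.05 by limma and open points do not. The 3 comparisons of lung metastasis with tumor areas stay left of 0 under every scaling drawn, while those with normal tissue fall on both sides.

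Values for cells other than tumor cells were read beside the difference between metastasis and PT, where 0.515% of all probes were called higher and 2.57% lower. Among red blood cell probes, miR-451 was higher in metastasis, with 1 of 3 probes called, and their summed normalized value was 348 to 533 in metastasis, 83.7 to 297 in PT and 49121 to 55994 in normal lung. Among white blood cell probes, 1 of 4 was called, miR-150, higher in metastasis, and the sums were 408 to 887 against 230 to 812. Of the endothelial probes 0 of 2 were called, with sums of 819 to 3114 in metastasis and 1067 to 2626 in PT. Of the smooth muscle and fibroblast probes 1 of 4 was called, miR-199a-3p, lower in metastasis, with sums of 846 to 1878 against 1450 to 3395. Epithelial probes of the miR-200 family gave 0 of 5 calls, with sums of 2239 to 4301 in metastasis and 38.0 to 5035 in PT. All 5 nevertheless had a log2 fold change above 0, with a median of 2.26 against 0 over all probes. Carcinoma had epithelial sums of 737 to 5035, and EMT-like areas had 38.0 to 1592, with medians of 2547 and 326. Of the striated muscle probes 0 of 4 were called, and miR-1 was under the limit in all 16 tumor samples. The part of these cells in the level of miR-210 was not tested.

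Other miRNAs known to respond to low oxygen gave a mixed picture. A list of 12 probes for miRNAs described as raised by hypoxia held 0 members higher and 3 lower in metastasis than in PT (over all 583 probes, 0.515% were higher and 2.57% lower), and the median log2 fold change was -0.24, against 0 over the 583 probes. The 3 that fell were miR-23a, miR-27a and miR-27b. miR-23a and miR-27a are made from the same cluster on chromosome 8, and miR-27b comes from a related cluster on chromosome 13. The mature sequences of these, again with seeds in capitals, show that miR-27a and miR-27b share a seed and that none shares that of miR-210.
mmu-miR-27a-3p: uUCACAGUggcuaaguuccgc
mmu-miR-27b-3p: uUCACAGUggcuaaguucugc
mmu-miR-23a-3p: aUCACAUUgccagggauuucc
miR-27b had a normalized value of 24.7 ± 8.17 (SD, n = 4) in metastasis and ranged from 43.0 to 88.1 in PT (log2 fold change -1.48, standard error 0.26, adjusted p = 0.00112 by limma). It was above the detection limit in only 3 of 4 metastases and in 12 of 12 PT samples. For miR-23a the value was 1078 ± 328 (SD, n = 4) against a range of 1570 to 6190 (log2 fold change -1.34, standard error 0.32, adjusted p = 0.0167 by limma). For miR-27a it was 872 ± 178 (SD, n = 4) against 1168 to 2716 (log2 fold change -0.95, standard error 0.25, adjusted p = 0.0305 by limma). For all 3, as for miR-210, no metastasis reached the lowest PT sample, which held for 9 of the 583 probes (1.54%). These 3 are named because they were called lower in this same comparison, so their separation is no further result. The remaining 9 were not called, with log2 fold changes from -0.84 for miR-23b to 0.59 for miR-107.

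miRNAs that act on the HIF-1alpha transcript itself were read on 4 probes, since miR-17, miR-20a and miR-20b share probes with near-identical relatives. Among these, 1 was called in metastasis against PT, where 2.57% of all probes were called lower. It was miR-199a-5p, at 134 ± 54.2 (SD, n = 4) in metastasis against 196 to 778 in PT (log2 fold change -1.39, standard error 0.29, adjusted p = 0.00538 by limma), and its groups overlapped. The probe for miR-106a and miR-17 had a log2 fold change of 0.68 and that for miR-20a and miR-20b of 0.56, neither called, and miR-18a was at 0 in all of these samples. The median of the 4 probes was 0.28, against 0 over all.

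In spheres against the monolayer, miR-210 and most of the listed miRNAs were not called. Of the 12 raised by hypoxia, 1 was higher and 2 lower, with 2.92% of all probes called higher and 1.72% lower, and their median log2 fold change was -0.13. The higher one was miR-181a, at 1183 and 1576 in the spheres and 325 and 550 in the monolayer (log2 fold change 1.69, standard error 0.35, adjusted p = 0.00522 by limma). The lower ones, miR-26a and miR-107, were under the detection limit in all 4 cultures, so no fold change is given. Of the 4 probes for miRNAs that act on HIF-1alpha, 0 were called. The calls given for spheres came from the fit of all 24 samples, which share an estimate of the spread. With only the cultures in the fit, 0 of the 583 probes were called higher and 0 lower, so the call of miR-181a depends on that shared estimate.

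**Figure D4:**
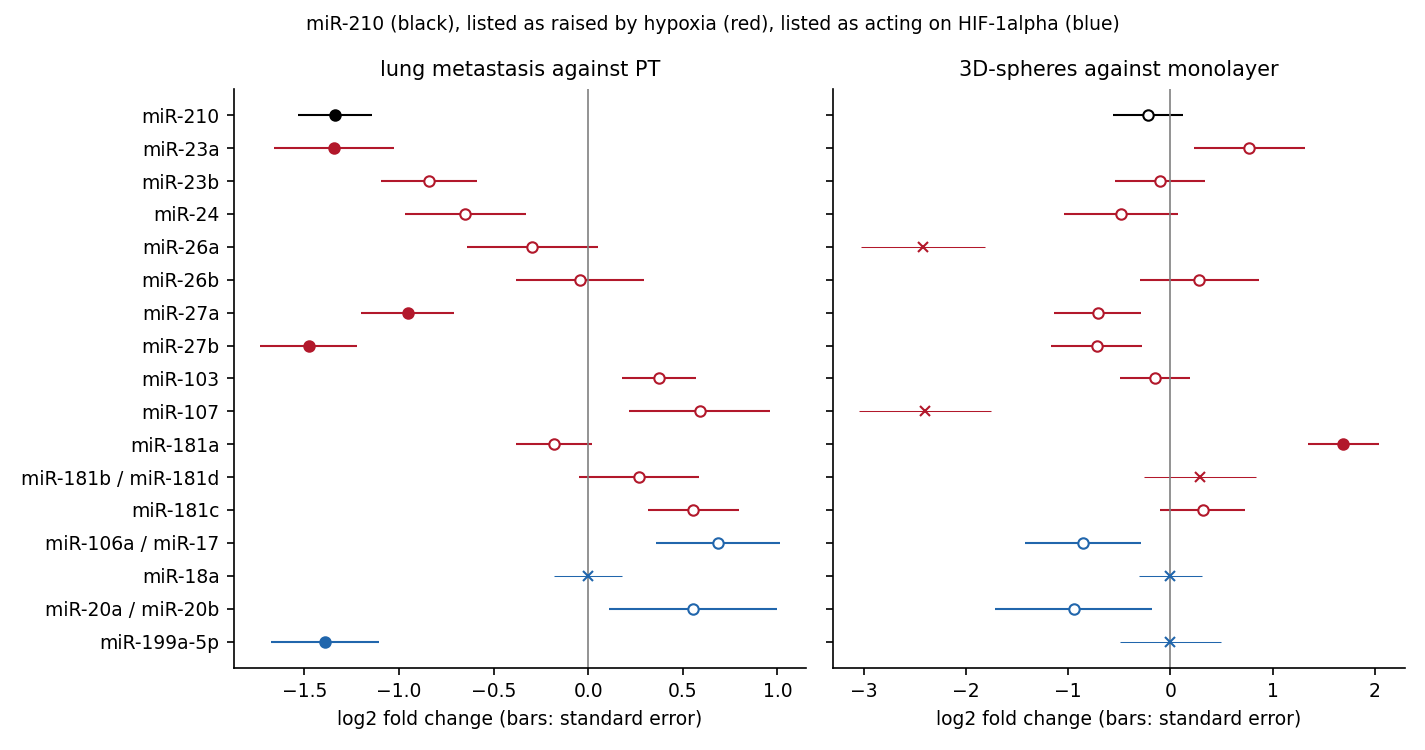
log2 fold change with its standard error for miR-210 (black), 12 probes listed as raised by hypoxia (red) and 4 listed as acting on HIF-1alpha (blue), for lung metastasis against primary tumor on the left and spheres against monolayer on the right; filled points have an adjusted p under 0.05 by limma, and crosses are under the detection limit in every sample of both groups. On the left miR-210, miR-23a, miR-27a, miR-27b and miR-199a-5p are filled and lie left of 0, and on the right the filled point is miR-181a.

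The probes whose profile over the 24 samples was most like that of miR-210 were named from 195 mouse miRNAs detected in at least 12 samples, by Pearson correlation of log2 normalized values. They were miR-132 (r = 0.77), which is abundant in neurons and also made in endothelium, miR-140 (r = 0.75), best known from cartilage, let-7b (r = 0.68), miR-23b (r = 0.67) and miR-21 (r = 0.66), a miRNA raised in many tumors. These values are descriptions over samples that share lanes, animals and scaling factors. Over the 7 group means, r was 0.91 for miR-132 and 0.86 for miR-140. After removal of the group means, r was -0.07 and 0.01, so the likeness lay between groups and not among samples of a group. With no scaling miR-132 kept the first place of 195, and miR-140 was at place 57. Unscaled values also follow the sums of the lanes, which ranged from 26420 to 2335745, so those places do not measure likeness alone. Group means of miR-132 were 134 for EMT-like areas, 106 for NMG, 82.97 for carcinoma, 55.5 for metastasis, 50.8 for normal lung, 35.4 for the monolayer and 34.9 for the spheres. NMG thus lay above carcinoma for miR-132 and below it for miR-210. In metastasis against PT it was called lower, at a log2 fold change of -0.96 (with a standard error 0.26, adjusted p = 0.0433 by limma).

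At the other end were miR-425 (r = -0.51), the probe shared by miR-466a-3p and miR-466b-3-3p (r = -0.48) and miR-709 (r = -0.47). miR-425 had a mean of 48.1 in metastasis, with 33.7 for carcinoma and 22.5 for EMT-like areas, and its log2 fold change in metastasis against PT was 0.80 (standard error 0.27, adjusted p = 0.117 by limma). With no scaling, where values also follow the sums of the lanes, its r turned to 0.48. No probe was as strongly opposed to miR-210 as miR-132 was alike.

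**Figure D5:**
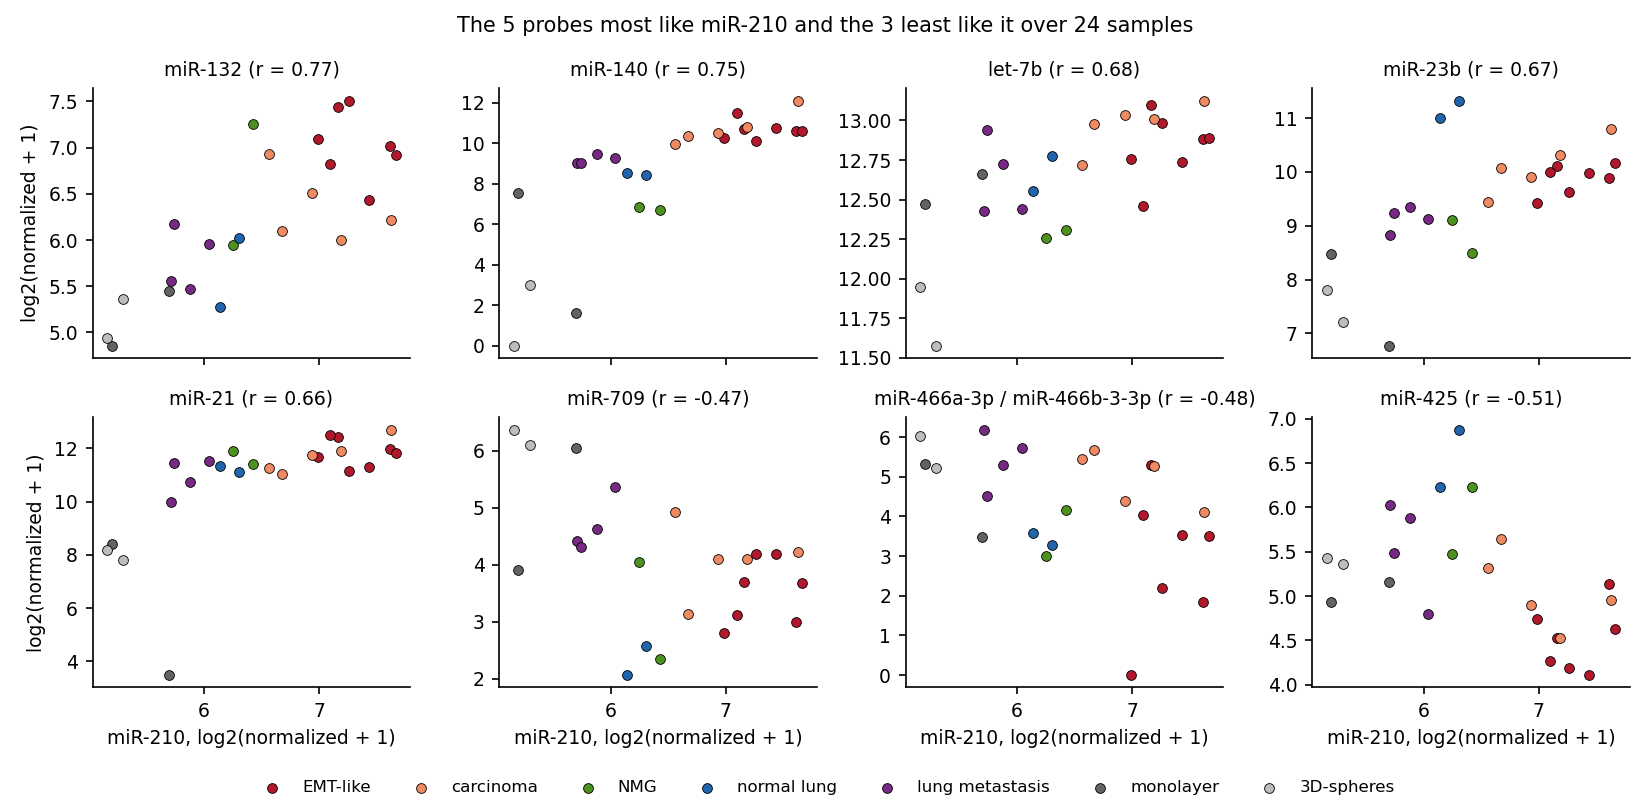
log2(normalized value + 1) of the 5 probes most like miR-210 and the 3 least like it, each against that of miR-210 over 24 samples coloured by group, with Pearson's r above each panel. For miR-132 (r = 0.77) the cultures and metastases lie low and the EMT-like areas high on both axes, and for miR-425 (r = -0.51) the tumor areas lie lowest where miR-210 is high.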

How the data were processed

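The deposited values are a score: per the values and labels, nCounter counts less the average of 6 negative controls in the same lane, subtracted by the authors (lowest value -20, 35.2% of miRNA values below 0), with no scaling between lanes. Partek is named in the submitters' processing notes, without a version. The detailed methods of the assay are not given in the sources used here.

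Values were floored at 0, scaled by TMM factors (0.403 to 5.63, trims of 30% and 5%, 566 mouse and 33 viral probes) and compared as log2(value + 1) with limma 3.58.1 in R 4.3.3, with trend, in 1 fit of all 24 samples and Benjamini-Hochberg adjustment over the 583 probes above 0 in at least 1 sample. For miR-210 alone, exact permutation tests (two-sided) were run in Python 3.11.15. Apart from the sign-flip test on pairs, they took samples as independent, also where these shared an animal. The fit was also run on simulated lanes drawn independently with the same spread setting for all probes, so shared animals were not part of that check. No count model was used because values lie below 0.

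miR-210, the lists and the tests were chosen with earlier results of these data known. Named miRNAs are miR-210, the 5 most and 3 least correlated with it, listed hypoxia-linked miRNAs called in metastasis or spheres, and cell type markers. Lists were written from general knowledge. Samples of one animal label had a median correlation of deviations of 0.10 (range -0.31 to 0.30, 10 pairs, 196 probes), and the main fit has no animal term. The median was 0.01 (range -0.66 to 0.57) for other animals of the same series and -0.19 (range -0.65 to 0.51) between series. No replicate pair shared more than 9.01% of identical values. Alternatives were other scalings, filters, background, pseudocount, blocks and leaving out each sample. mRNA assays were not analysed here.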

Additional observations from a re-analysis of the deposited data

How the results depend on the processing

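The lower level of miR-210 in lung metastasis than in PT was called under all 29 alternatives run (log2 fold change -2.34 to -1.22, highest adjusted p 0.0180 by limma), and that against EMT-like areas under all 24. Carcinoma against EMT-like areas was not called under any of 25, but was called with 1 of the 24 lanes as the TMM reference. Over those lanes carcinoma against NMG was called with 5 (log2 fold change 0.0088 to 0.88) and EMT-like areas against NMG with 22 (0.66 to 1.27). This run over lanes, TMM over mouse probes only and leaving out the samples of pooled animals were chosen after seeing the data. Scaling moved the median of all probes in metastasis against PT from 0 to -0.23 with no scaling and with positive controls and to -0.13 with mRNA controls. The changes of call or direction were these, as log2 fold changes. With no scaling, carcinoma against NMG was -0.90, EMT-like areas against NMG -0.19, metastasis against normal lung -2.51 and normal lung against NMG 0.12. With positive controls these were -0.67, -0.091, -2.37 and 0.14, and with mRNA controls -0.21, -0.040, -2.87 and 1.13, with spheres against monolayer at 0.45 and metastasis against carcinoma at -1.52 (not called). With the 100 most abundant miRNAs, metastasis against carcinoma was -1.05 (not called), carcinoma against NMG 1.56 (called), metastasis against normal lung 1.38 (called) and cultures against PT 0.50. With the miRNA total, carcinoma against NMG was 1.10 and metastasis against normal lung 1.07, both called, and with TMM over mouse probes only the latter was 0.062. With the higher background subtracted, EMT-like areas against NMG was 1.07 (not called) and metastasis against normal lung -1.45 (called). With only the groups compared, metastasis against carcinoma was -1.15 (not called). Without one sample at a time, EMT-like areas against NMG ranged from 0.89 to 1.07 and spheres against monolayer from -0.47 to 0.029, the latter without monolayer replicate 2. Called values that kept their call and moved by over 1.5 times were cultures against PT (-5.36 with the higher background, -2.90 with positive controls, -0.79 with the miRNA total), EMT-like areas against NMG (2.16 with the 100 most abundant miRNAs, 1.62 with the miRNA total) and, with the higher background, metastasis against PT (-2.34), carcinoma (-1.85) and EMT-like areas (-2.69). With the animal or culture number as a replicate block, metastasis against PT was -1.34 and no call changed. The cause of these changes was not tested. The groups of 2 samples and culture values near the detection limit bound what can be read from them.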
